A study of Mus musculus with 6 samples.

Results

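Cck, Gip, Gast and Sct, which encode the gut peptide hormones cholecystokinin, glucose-dependent insulinotropic polypeptide, gastrin and secretin, were followed in embryonic mouse pancreas. They are 4 of the 23337 genes in the deposited count tables, found by exact gene symbol. They were chosen by their measured read counts, because these moved in opposite directions between mutant and control pancreas in these same libraries. Their differences between the groups are therefore given as a description, with no test.

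The tissue was pancreas of NMRI mouse embryos at E13.5. The 3 control pools came from wildtype embryos. The 3 mutant pools came from embryos labelled Prox1-nullyzygous, with the genotype Prox1 GFPCre/D, in which Prox1, a homeobox transcription factor gene, carries a GFPCre allele and an allele written D. Each library held the RNA of 5 to 6 pancreata of 1 genotype. The labels do not describe what the alleles remove, in which litters the embryos lay or on which days they were collected, so the spread between pools may be partly technical. RNA of whole organs was sequenced, and fewer cells of a type cannot be told apart from less RNA per cell.

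In the adult gut these hormones come from enteroendocrine cells, single hormone cells scattered through the epithelium. Cholecystokinin, from I cells, causes the gallbladder to contract and acinar cells to release enzymes, and it is also a neuropeptide. Glucose-dependent insulinotropic polypeptide, from K cells, is an incretin, a hormone that raises insulin secretion after a meal. Gastrin, from G cells of the stomach, drives acid secretion, and secretin, from S cells, drives bicarbonate secretion by the pancreatic duct. Gastrin and cholecystokinin share the active end of the peptide and the receptor Cckbr, while glucose-dependent insulinotropic polypeptide and secretin belong to the glucagon-secretin family. Endocrine cells of gut and pancreas both arise from Neurog3-positive progenitors, and developing islet cells can express peptides that the adult islet does not.

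All 4 genes have annotated exons free of overlap with any other annotated gene (0 overlapping genes each in GENCODE M21 on GRCm38), so their reads were not shared with an antisense or overlapping partner there. Cck (ENSMUSG00000032532.7) occupies chromosome 9, 121489824 to 121495694, minus strand, and has 1305 exon bases. Gip (ENSMUSG00000014351.12) occupies chromosome 11, 96024545 to 96030831, plus strand, with 687 exon bases. Gast (ENSMUSG00000017165.1) is on the same chromosome and strand, at 100334407 to 100336996, with 460 exon bases. Sct (ENSMUSG00000038580.13) occupies chromosome 7, 141278330 to 141279133, minus strand, with 645 exon bases.

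The 250 bases upstream of each annotated start are shown because Cck and Gip were both higher, and Gast and Sct both lower, in the mutant pools. They are RefSeq sequences of GRCm38.p6, 5′ to 3′ on the gene's strand, so that the right end adjoins the start of the transcript. Capitals mark every match, on either strand, to 4 short motifs: CANNTG, the E-box recognised by basic helix-loop-helix factors such as Neurog3 and Neurod1; TAAT, the core recognised by many homeodomain factors; AGATAA, a form of the GATA factor motif; and TATAA, the core of the TATA box.
Cck, chr9:121495695-121495944, minus strand: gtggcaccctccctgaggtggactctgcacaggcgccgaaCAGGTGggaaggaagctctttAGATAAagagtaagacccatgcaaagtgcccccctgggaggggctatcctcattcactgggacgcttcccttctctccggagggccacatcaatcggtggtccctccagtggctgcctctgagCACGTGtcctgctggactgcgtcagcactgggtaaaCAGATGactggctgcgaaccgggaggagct
Gip, chr11:96024295-96024544, plus strand: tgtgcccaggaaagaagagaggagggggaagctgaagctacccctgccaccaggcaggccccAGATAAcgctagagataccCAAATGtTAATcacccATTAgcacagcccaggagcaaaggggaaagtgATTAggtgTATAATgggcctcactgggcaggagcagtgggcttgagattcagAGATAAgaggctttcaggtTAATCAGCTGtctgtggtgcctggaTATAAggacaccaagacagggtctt
Gast, chr11:100334157-100334406, plus strand: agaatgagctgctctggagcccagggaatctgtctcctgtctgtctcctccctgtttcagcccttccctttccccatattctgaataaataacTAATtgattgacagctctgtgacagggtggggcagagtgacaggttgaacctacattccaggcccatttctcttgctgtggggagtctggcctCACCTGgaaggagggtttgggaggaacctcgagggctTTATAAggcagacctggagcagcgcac
Sct, chr7:141279134-141279383, minus strand: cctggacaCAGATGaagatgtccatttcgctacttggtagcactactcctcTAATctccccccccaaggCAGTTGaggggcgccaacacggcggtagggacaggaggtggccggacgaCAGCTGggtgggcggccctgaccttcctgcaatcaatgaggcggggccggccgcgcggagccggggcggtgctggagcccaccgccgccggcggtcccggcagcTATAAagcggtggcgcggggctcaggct

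The TATAA core occurred 25 to 21 bases upstream of the start in Gip, 26 to 22 in Gast and 28 to 24 in Sct, and was absent as spelled from the Cck window. Over all 32851 promoter windows of this length, 22.8% held TATAA on either strand. E-boxes were found in all 4 windows, with 3 matches each for Cck and Sct, 2 for Gip and 1 for Gast. That motif is common, with a match in 66.2% of all windows. AGATAA was found in both genes that were higher, with 1 match in Cck and 2 in Gip, and in neither Gast nor Sct, against 9.99% of all windows. TAAT had 5 matches in Gip, 1 each in Gast and Sct and none in Cck, against 54.9% of all windows. In Gip, 1 match of the TATA core overlaps 1 of the homeodomain core, and another homeodomain core adjoins an E-box. In Gast, the TATA core overlaps a match of the same motif on the other strand. G and C made up 60.0% of the window in Cck, 52.0% in Gip, 53.2% in Gast and 68.0% in Sct, with a median of 52.4% over all windows. These matches describe the letters only, and no binding was measured here. Whether any motif goes with the direction of change was not tested, and the 4 genes were chosen by that direction.

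Library totals lay between 16060424 and 17633867 reads. Levels are in CPM, reads scaled to library size after correction by the trimmed mean of M values (TMM), and 1 CPM stood for 15.9 to 17.5 reads. The targeted gene Prox1 had 1687 to 1824 reads in control pools and 1330 to 1774 in mutant pools, and these overlapped. Since no source says which part the alleles lack, the Prox1 reads are no check of genotype. Reads of Xist, the RNA of the inactive X chromosome, numbered at most 9 in control pool 3 and mutant pool 1 and at least 33297 in the other pools. All 8 listed pancreas markers passed the filter, with 2 called lower in mutants at an edgeR adjusted p under 0.05 (4.28% over all genes tested), 6 not called and a median log2 fold change of -0.23. Among them were Pdx1 at means of 50.4 and 40.7 CPM (control, mutant) and Ptf1a at 20.3 and 21.4 CPM.

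Cck was the more abundant of the higher pair. Control pools 1 to 3 held 193, 188 and 251 reads of Cck, and mutant pools 1 to 3 held 812, 967 and 829. On the CPM scale these levels were 11.5, 11.5 and 14.7 in controls and 51.1, 57.0 and 47.4 in mutants. Every mutant pool lay above every control pool, with a wide gap between the groups. The means were 12.5 ± 1.84 CPM (SD, n = 3) and 51.8 ± 4.81 CPM (SD, n = 3), a log2 fold change of 2.04 (SE 0.110) or 4.12-fold.

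Gip, the incretin gene, differed by more but from a lower level. Its reads numbered 48, 31 and 34 in control pools 1 to 3 and 192, 275 and 235 in mutant pools 1 to 3. That is 2.87, 1.89 and 1.99 CPM in controls against 12.1, 16.2 and 13.4 CPM in mutants. The groups did not overlap, and control pool 1 was the highest control. Group means were 2.25 ± 0.538 CPM and 13.9 ± 2.10 CPM (SD, n = 3 each), a log2 fold change of 2.63 (SE 0.189) or 6.17-fold.

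Gast, encoding gastrin, went the other way. Control pools held 98, 79 and 106 reads and mutant pools held 21, 23 and 27 reads, in the order of their numbers. As CPM the levels were 5.85, 4.81 and 6.19 against 1.32, 1.36 and 1.54. The lowest control pool was still more abundant in Gast than the highest mutant pool. Means of 5.62 ± 0.720 CPM and 1.41 ± 0.121 CPM (SD, n = 3 each) gave a log2 fold change of -1.99 (SE 0.187), which is 3.98-fold lower in mutants.

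Sct, encoding secretin, was lower as well. Control pools 1 to 3 had 94, 114 and 130 reads, and mutant pools 1 to 3 had 32, 42 and 38. The corresponding levels were 5.61, 6.94 and 7.60 CPM, and 2.01, 2.47 and 2.17 CPM. Again no mutant pool reached the control range. From 6.72 ± 1.01 CPM to 2.22 ± 0.234 CPM (SD, n = 3 each), the log2 fold change was -1.59 (SE 0.178), a level 3.02-fold lower in mutants.

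**Figure D1:**
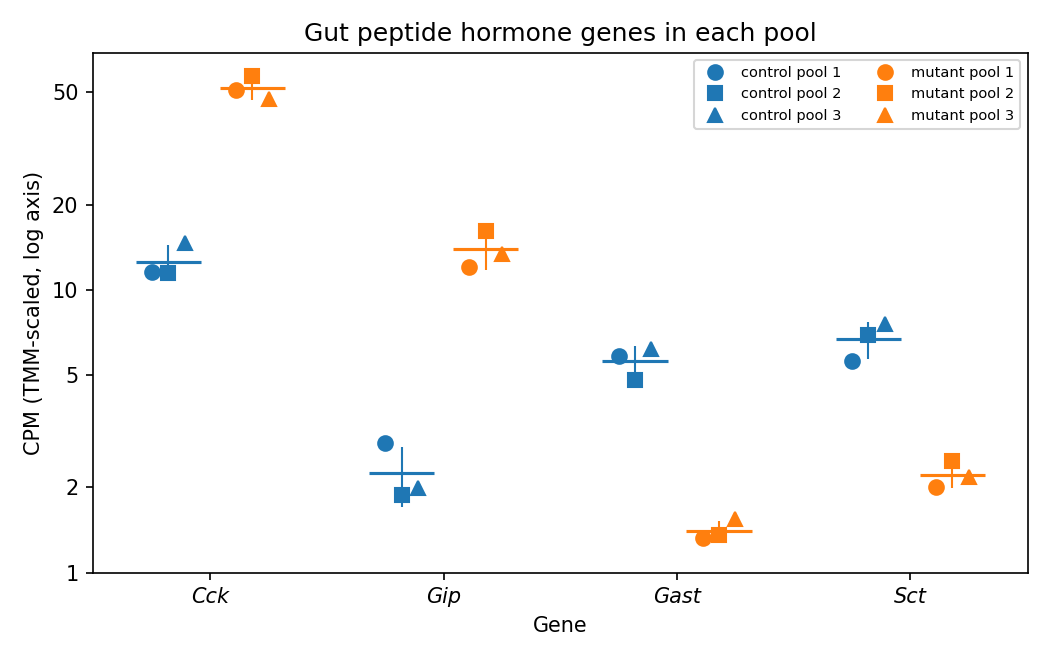
CPM of each gene (log axis) in the 3 control and 3 mutant pools; points are pools, horizontal bars group means and vertical bars 1 SD. Cck and Gip sit higher in all mutant pools, at 47.4 to 57.0 and 12.1 to 16.2 CPM, and Gast and Sct lower, at 1.32 to 1.54 and 2.01 to 2.47 CPM.

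All 4 genes passed the filter on low counts, and the groups did not overlap for any of them. Over all 14687 genes tested, 26.4% had no overlap between the groups. Since this contrast chose the 4 genes, nothing is read from their count. By size, the log2 fold change of Gip ranked 29th and that of Cck 59th from the top of all genes tested, and those of Gast and Sct ranked 35th and 71st from the bottom. For genes outside this choice, called means an edgeR adjusted p under 0.05, and 7.95% of all genes tested were called, 3.67% higher and 4.28% lower.

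The depth behind these values differed between the genes. In mutants, pools varied in Cck with a coefficient of variation of 9.29%, where counting alone would give 3.39%. For Gast in mutants the spread was 8.59%, below the 20.6% that counting 21 to 27 reads would give, so the difference between these 3 pools is not resolved at this depth. Sct in mutants had 10.6% against 16.4% from counting. Gip in controls had 23.9% against 16.3%. The pools of the other group had a spread of 14.6% for Cck in controls, 15.1% for Gip in mutants, 12.8% for Gast in controls and 15.1% for Sct in controls. Counting error was larger in the group with fewer reads, whereas the observed spread of Gast and Sct was smaller there.

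Ratios within a library do not depend on how libraries are scaled. Reads of Gip per read of Gast were 0.490, 0.392 and 0.321 in control pools and 9.14, 12.0 and 8.70 in mutant pools. Gast thus had more reads than Gip in every control pool and fewer in every mutant pool. Within the higher pair, reads of Cck per read of Gip were 4.02, 6.07 and 7.38 in controls and 4.23, 3.52 and 3.53 in mutants, and the groups overlapped. Within the lower pair, reads of Gast per read of Sct were 1.04, 0.693 and 0.815 in controls and 0.656, 0.548 and 0.711 in mutants, which also overlapped.

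Levels of different genes were compared per kilobase of annotated exon. In controls the order was Gast at 12.2 ± 1.57, Sct at 10.4 ± 1.57, Cck at 9.62 ± 1.41 and Gip at 3.27 ± 0.783 CPM per kb (SD, n = 3 each). Gast, Sct and Cck were neighbours whose pool ranges overlapped, and only Gip, at no more than 4.17 CPM per kb, stood clear below them. In mutants the order was Cck at 39.7 ± 3.69, Gip at 20.2 ± 3.06, Sct at 3.44 ± 0.364 and Gast at 3.06 ± 0.263 CPM per kb. Here Cck and Gip were separated by their ranges, while Sct and Gast overlapped. Among 33 peptide hormone genes with a length, Cck stood 9th by mean level in controls and 3rd in mutants, behind Gcg and Pyy, and Gip moved from 13th to 5th. Gast went from 6th to 11th and Sct from 8th to 10th. These lengths join all exons of all annotated transcripts, which may not be the set the authors counted on.

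**Figure D2:**
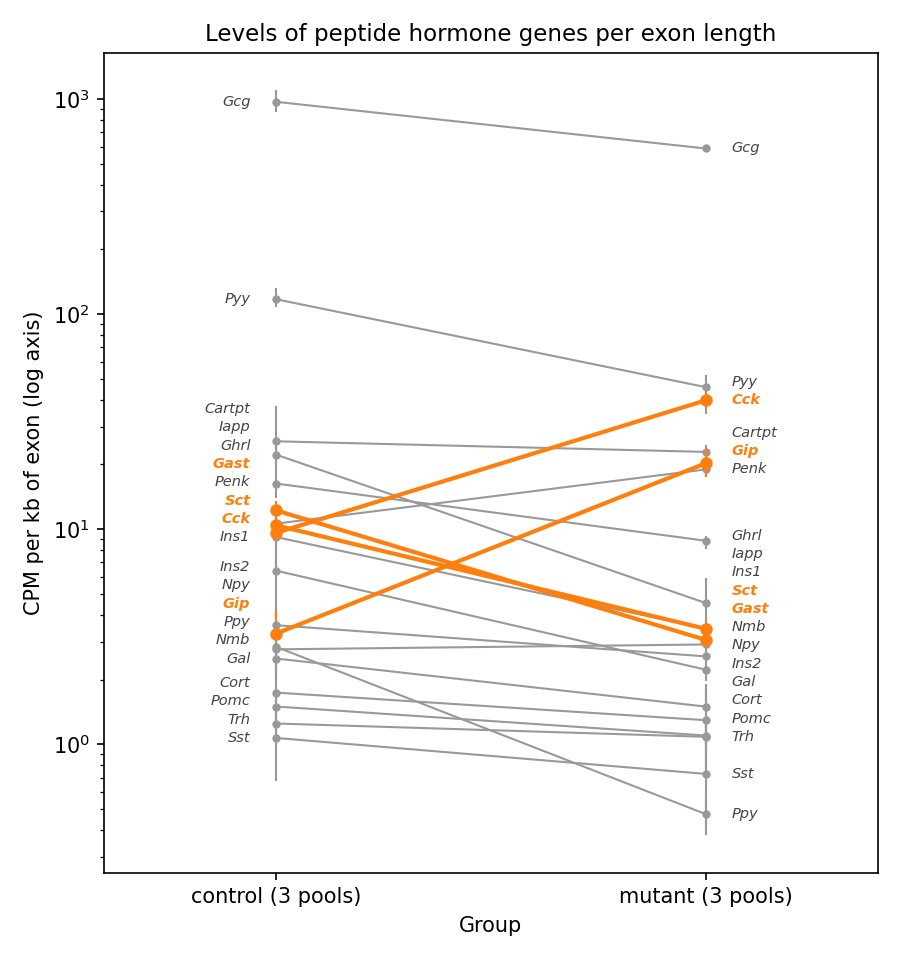
Mean CPM per kb of exon (log axis) in control and mutant pools for the peptide hormone genes at 1 CPM per kb or more in controls; vertical bars give the range of 3 pools, and labels are spread apart to be legible. Cck reaches 39.7 and Gip 20.2 CPM per kb in mutants, crossing Gast and Sct, which stand at 3.06 and 3.44.

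Reads of the 4 genes made up 1.60%, 1.67% and 1.61% of all reads in the 33 peptide hormone genes in control pools, and 6.36%, 6.98% and 6.08% in mutant pools. Cck alone went from 0.711% to 0.773% in controls to between 4.47% and 5.17% in mutants. The whole was smaller in mutants, with 16612 to 18721 peptide gene reads against 24716 to 32458, most of them from Gcg.

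The other 29 peptide hormone and neuropeptide genes of the list were mostly lower where they were called. Of these, 18 passed the filter, with a median log2 fold change of -0.65 against 0.00 over all genes tested. By edgeR, 1 was called higher, 8 lower and 9 were not called (3.67% higher and 4.28% lower over all genes tested). Gcg, encoding proglucagon and by far the most abundant, fell from 1449 ± 175 to 879.4 ± 23.5 CPM (log2 fold change -0.72, SE 0.080, edgeR adjusted p = 0.00117). Pyy, encoding peptide YY of gut L cells and islets, measured 68.1, 83.7 and 70.1 CPM in controls and 21.7, 32.8 and 32.2 CPM in mutants, a fall on the log2 scale of -1.35 (SE 0.145, edgeR adjusted p = 0.00098). Iapp, the amylin gene of beta cells, changed by -2.28 (SE 0.202, edgeR adjusted p = 0.000421), the smallest adjusted p of the list. Ghrl, encoding ghrelin, a hormone of the stomach and of fetal islet cells, changed by -0.88 (SE 0.126). The insulin genes Ins1 and Ins2, close copies whose reads are uncertain, were also called lower, and both calls depended on single pools. Without mutant pool 2 or mutant pool 3 the list members called lower numbered 5.

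Penk, encoding the opioid precursor proenkephalin, was the 1 other peptide gene called higher. It stood at 16.7, 15.2 and 20.1 CPM in controls and at 34.7, 29.8 and 28.5 CPM in mutants, with no overlap. Its log2 fold change was 0.84 (SE 0.117, edgeR adjusted p = 0.00346). By log2 fold change, Gip and Cck ranked 1st and 2nd of the 22 peptide genes tested and Penk 3rd, while Gast and Sct ranked 4th and 5th from the bottom, after Vip, Ppy and Iapp. Sst, the somatostatin gene, was not called, with 8 to 19 reads per control pool and 5 to 14 per mutant pool. Nts, the neurotensin gene of gut N cells, had at most 3 reads in any pool and was not tested.

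**Figure D3:**
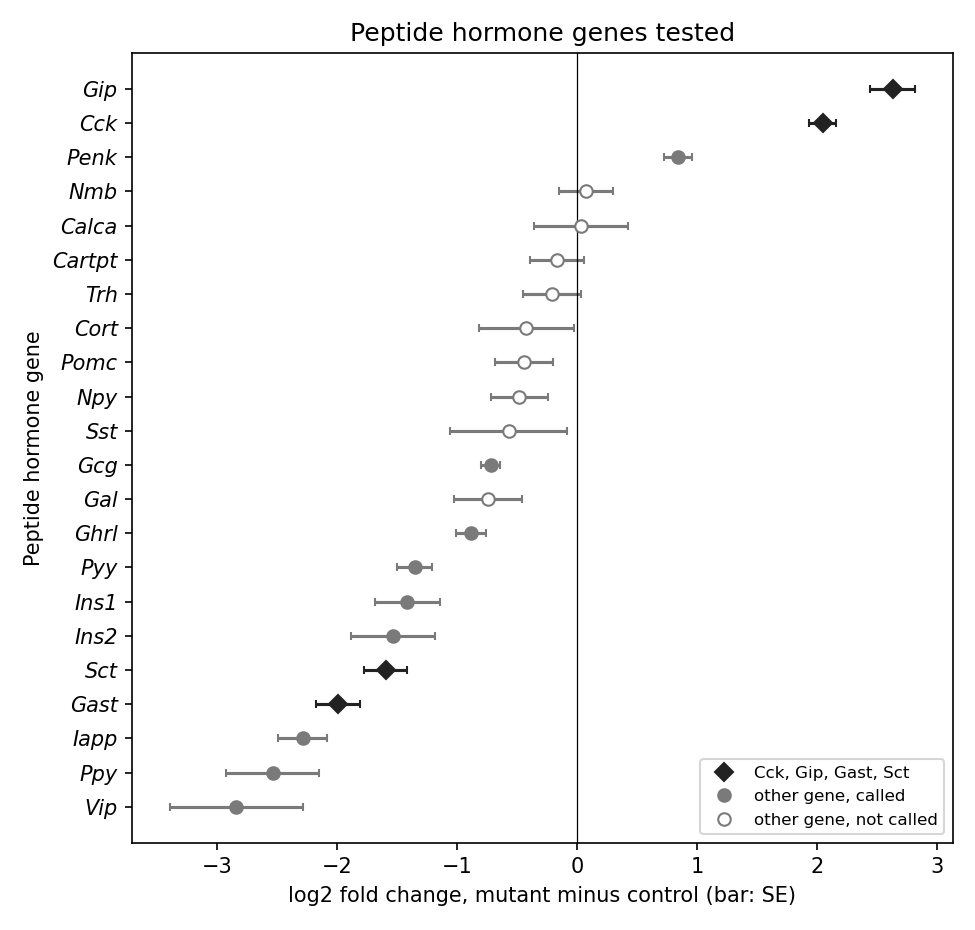
Log2 fold change, mutant minus control, of the 22 peptide hormone genes that passed the filter, with 1 SE; diamonds are Cck, Gip, Gast and Sct, filled circles other genes called by edgeR and open circles genes not called. Gip at 2.63 and Cck at 2.04 lie above Penk at 0.84, and Gast at -1.99 and Sct at -1.59 lie among the islet peptides.

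Receptors of these hormones did not move as one. Of 11 listed receptors of the glucagon-secretin and cholecystokinin families, 9 were tested, with a median of 0.02. By edgeR, 1 was called higher, 1 lower and 7 were not called (3.67% higher and 4.28% lower over all genes tested). At an edgeR unadjusted p under 0.05, 4 were higher and 2 lower (10.9% and 10.2% over all genes tested). Cckbr, the receptor shared by gastrin and cholecystokinin, rose from 0.716 ± 0.104 to 1.55 ± 0.180 CPM, on 10 to 13 reads per control pool and 25 to 28 per mutant pool. Its log2 fold change of 1.11 (SE 0.260) had an edgeR adjusted p of 0.0341, and the call was lost when any 1 pool was left out, with edgeR adjusted p between 0.0532 and 0.116, and with DESeq2 (adjusted p = 0.160).

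Cckar, the cholecystokinin receptor of acinar cells, was the most abundant receptor of the list by CPM and was not called. It measured 122.9, 77.2 and 128.7 CPM in controls and 93.3, 98.8 and 84.8 CPM in mutants, so the groups overlapped. Gipr, the receptor of the Gip product, averaged 4.66 ± 0.786 CPM in control and 3.36 ± 0.193 CPM in mutant pools, with no call (log2 fold change -0.47, SE 0.176, edgeR adjusted p = 0.159). The secretin receptor gene Sctr was at 0.676 ± 0.278 CPM and 1.46 ± 0.321 CPM and was not called either (1.11, SE 0.355, edgeR adjusted p = 0.103). Vipr2, a receptor for vasoactive intestinal peptide, fell by 0.67 on the log2 scale (SE 0.133, edgeR adjusted p = 0.0168), a call that did not hold once control pool 1 was left out (edgeR adjusted p = 0.0703).

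Genes that process peptide precursors were partly lower. Of 22 listed and tested, 6 were called lower and 0 higher by edgeR (4.28% lower and 3.67% higher over all genes tested). The other 16 were not called, and the median was -0.19. At an unadjusted p under 0.05, 2 were higher and 8 lower, where over all genes tested 10.9% were higher and 10.2% lower at that threshold. DESeq2 and limma voom also called 0 higher and 6 lower. Pcsk2, a prohormone convertase, fell from 75.1 ± 5.55 to 37.0 ± 4.27 CPM (log2 fold change -1.02, SE 0.089, edgeR adjusted p = 0.000407). Pcsk1n, encoding an inhibitor of the other main convertase, changed by -1.11 (SE 0.170), the granin gene Scg3 by -0.71 (SE 0.117) and Cpe, the carboxypeptidase that trims cut precursors, by -0.52 (SE 0.087).

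Other steps that these hormones need were not called. Pcsk1, the convertase that cuts the Gip precursor, averaged 20.7 ± 6.29 CPM in control and 17.3 ± 2.48 CPM in mutant pools. Pam, which amidates the ends of gastrin, cholecystokinin and secretin, averaged 159.0 ± 8.67 and 143.7 ± 7.93 CPM. The tyrosine sulfotransferase genes Tpst1 and Tpst2, whose products act on gastrin and cholecystokinin, changed by 0.08 (SE 0.062) and -0.07 (SE 0.070). Dpp4, the protease that inactivates the Gip hormone, was called lower at -0.33 (SE 0.079, edgeR adjusted p = 0.0379). That call was lost when any 1 pool other than control pool 2 was left out, with edgeR adjusted p up to 0.127.

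Transcription factors of enteroendocrine and islet cells were lower in part. Of 25 tested, 10 were called lower, 0 higher and 15 not called by edgeR (4.28% lower and 3.67% higher over all genes tested). The median was -0.44. At an unadjusted p under 0.05, 15 were lower and 2 higher (10.2% and 10.9% over all genes tested), while DESeq2 called 1 higher and limma voom 0. Neurog3, which starts endocrine differentiation in gut and pancreas, measured 143.0, 112.4 and 162.8 CPM in controls and 66.6, 68.5 and 62.0 CPM in mutants (log2 fold change -1.09, SE 0.118, edgeR adjusted p = 0.00105). Myt1, a zinc finger factor of endocrine progenitors, fell from 38.9 ± 6.85 to 17.2 ± 1.39 CPM (-1.18, SE 0.128, edgeR adjusted p = 0.00106).

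Others of these factors were not called. Isl1 stood at 47.4 ± 3.24 and 43.4 ± 2.17 CPM with overlapping groups. Pdx1, a factor of pancreas and duodenum that is also known from K cells, changed by -0.31 (SE 0.101, edgeR adjusted p = 0.114). Lmx1a, known from enterochromaffin cells, averaged 1.29 CPM in control and 1.54 CPM in mutant pools, and Etv1 changed by -0.29 (SE 0.102).

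**Figure D4:**
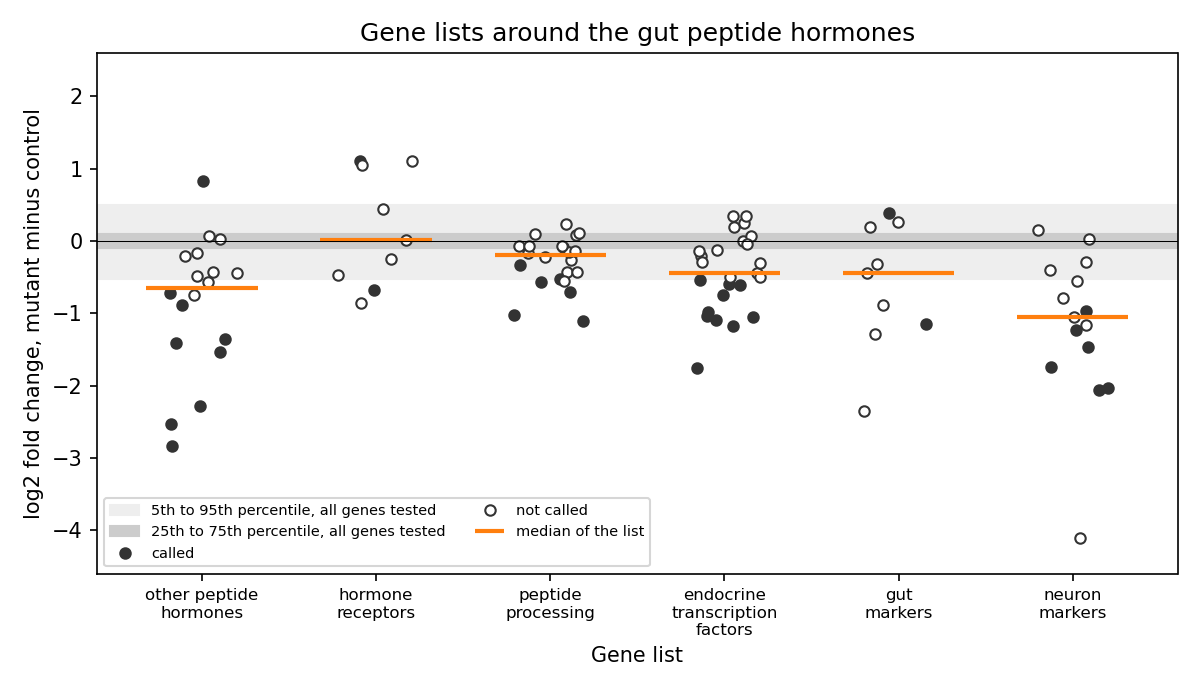
Log2 fold change, mutant minus control, of each tested gene in 6 gene lists; filled points were called by edgeR, open points were not, orange bars are list medians and grey bands hold the middle 50% and 90% of all genes tested. List medians run from 0.02 for receptors to -1.06 for neuron markers.

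Markers of other tissues that a dissection of pancreas can carry were examined beside the 4 genes. Of 20 gut markers in the files, 9 were tested, with a median of -0.45. By edgeR, 1 was called higher, 1 lower and 7 were not called (3.67% higher and 4.28% lower over all genes tested). Their summed level was 88.5 to 125.7 CPM in controls and 101.8 to 112.6 CPM in mutants. Most of that was Barx1, a factor of stomach and splenic mesenchyme, which was called higher at 0.39 (SE 0.099, edgeR adjusted p = 0.0472), a call that control pools 1 and 3 and mutant pools 2 and 3 were each needed for (edgeR adjusted p up to 0.158 without 1 of them). Onecut3, the lower call, changed by -1.14 (SE 0.288), and the call held only with all pools or without control pool 3, reaching an edgeR adjusted p of 0.128 without mutant pool 1.

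Of the markers that define intestinal and gastric epithelium, Cdx2 had at most 4 reads, Cdx1 at most 9 and Tff2 at most 2 in any pool. Cdx2 had 1, 0 and 1 reads in control pools and 1, 4 and 2 in mutant pools. Other gut markers below the filter went both ways. Cldn18 had 7, 2 and 6 reads in controls and 9, 11 and 10 in mutants, and Lgals4 3, 3 and 2 against 6, 5 and 5. Nkx6-3 had 8, 5 and 4 reads in controls and 0, 1 and 3 in mutants. Cdh17, an intestinal cadherin gene, had 23 to 36 reads per pool. Vil1, encoding the brush-border protein villin, had 75 to 133 reads in control pools and 37 to 63 in mutant pools and was not called (-0.88, SE 0.256, edgeR adjusted p = 0.0747). Sox2, a factor of the stomach epithelium, had 94 reads in control pool 2 and 6 to 12 in each other pool. Pitx1, a homeobox factor gene of the same list, had 163 reads in control pool 2 and 15 to 37 elsewhere. Without control pool 2 the log2 fold changes were -2.10 for Gast, -1.57 for Sct, 1.98 for Cck and 2.51 for Gip. The part of gut tissue in the levels of the 4 genes was not tested.

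Neurons are a known source of cholecystokinin, and part of the neuron and neural crest markers were called lower in mutants. Of 15 tested, 6 were called lower, 0 higher and 9 not called by edgeR (4.28% lower and 3.67% higher over all genes tested). The median was -1.06. At an unadjusted p under 0.05, 10 were lower and 0 higher (10.2% and 10.9% over all genes tested), and DESeq2 called 8 lower and 0 higher, limma voom 6 and 0. The neuronal tubulin gene Tubb3 fell from 24.6 ± 10.1 to 8.97 ± 0.763 CPM (-1.46, SE 0.257, edgeR adjusted p = 0.00991). Summed over the list the level was 363.2 to 565.1 CPM in controls and 337.7 to 371.7 CPM in mutants. The highest sum was in control pool 3, and the groups overlapped. Hand2 was the largest part, at 144.8 to 179.7 CPM in controls and 142.4 to 180.0 CPM in mutants. The sums are therefore not a measure of the other markers alone. Among those not called, the log2 fold change was 0.15 (SE 0.257) for Stmn2 and 0.03 (SE 0.102) for Hand2. Without mutant pool 2, 3 members were called lower. The part of neurons in the level of Cck was not tested.

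Control pool 3 held the most Cck, Gast and Sct of the controls and also the most of the neuronal gene Dbh, with 148 reads against 3 to 17 in each other pool. Dbh, which makes noradrenaline, was not called (edgeR adjusted p = 0.0546). Without control pool 3 the log2 fold changes were 2.17 for Cck, 2.54 for Gip, -1.92 for Gast and -1.50 for Sct. With control pool 3 and mutant pool 1, the pools low in Xist, both left out they were 2.18, 2.63, -1.88 and -1.43. Each of the 4 kept its direction in both cases, but genes chosen by this contrast, with no overlap between groups, could hardly lose it.

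Genes next to the 4 loci on the chromosome were read in the same fit. The nearest 2 tested genes on each side gave 16 genes, with log2 fold changes from -0.68 to 0.45. Of these, 2 were called, both lower (4.28% lower over all genes tested). Hap1, encoding huntingtin-associated protein 1 and 10.3 kb from Gast, fell from 68.2 ± 4.67 to 42.6 ± 2.36 CPM (-0.68, SE 0.068, edgeR adjusted p = 0.000687). Deaf1, a transcription factor gene 18 kb from Sct, changed by -0.24 (SE 0.048, edgeR adjusted p = 0.0197). No gene beside Cck or Gip was called, including Snf8, 4.1 kb from Gip, with means of 23.0 ± 0.231 and 23.8 ± 0.790 CPM.

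The search for similar genes covered only tested genes with standing names, and left out provisional symbols such as those ending in Rik. Profiles of log2 CPM were each centred on their own mean over the 6 libraries. The genes most like each hormone gene were found by the root mean square difference between these profiles. This measure is in log2 units, is 0 for profiles of the same shape and size, and is a description with no test. Between the hormone genes it was 0.377 for Cck and Gip and 0.269 for Gast and Sct, and it lay between 1.79 and 2.25 for the pairs that cross. The 4 genes were chosen by how they moved in these libraries, so these values largely restate their fold changes. Genes near a hormone gene are likewise those of similar log2 fold change, such as Enpp2 at 2.18 beside Cck at 2.04. Nearest to Cck were Enpp2 (0.132), encoding autotaxin, Cldn2 (0.191), encoding a pore-forming claudin, and Ak7 (0.222), encoding an adenylate kinase. Nearest to Gip were Ndp (0.249), encoding norrin, Enpp2 (0.290) and Aldh1a1 (0.293), encoding a retinaldehyde dehydrogenase. Enpp2 averaged 76.2 ± 1.98 CPM in control and 346.2 ± 11.95 CPM in mutant pools (SD, n = 3 each). Ndp and Ak7 were scarce, at means of 0.338 and 0.714 CPM in control and 2.055 and 3.352 CPM in mutant pools. Their profiles thus rest on few reads in controls.

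Gast lay nearest to A1cf (0.074), encoding an RNA-binding partner of the Apob editing enzyme, Aldh1b1 (0.121), encoding a mitochondrial aldehyde dehydrogenase, and Ces1d (0.162), encoding a carboxylesterase. A1cf averaged 20.3 ± 1.71 CPM in control and 5.38 ± 0.590 CPM in mutant pools. Sct lay nearest to O3far1 (0.0887), encoding a fatty acid receptor, Rbp4 (0.111), encoding the plasma retinol carrier, and Afp (0.120), encoding alpha-fetoprotein. O3far1 averaged 6.57 ± 0.736 CPM in control and 2.28 ± 0.358 CPM in mutant pools.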

How the data were processed

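RNA from 6 pools of E13.5 pancreas was sequenced, and the deposited files give raw whole-number read counts per gene symbol, not normalized by the authors. Per the submitters' processing notes, cutadapt 1.13, STAR, HTSeq 0.6.1p1, DESeq2 and build mm10 were used. Which annotation and strand setting served for counting is not given in the sources used here.

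Low genes were dropped with filterByExpr (minimum count 10), libraries were scaled by TMM, and genotype was tested by the quasi-likelihood F test of edgeR 4.0.16 in R 4.3.3. P-values were adjusted by Benjamini-Hochberg over 14687 genes, and called means an adjusted p under 0.05. The SE of a log2 fold change is its size over the root of F. Counting errors cover sampling of reads only. Alternatives were other scalings and filters, DESeq2 1.42.0, limma 3.58.1 voom, robust estimation, a replicate block and leaving out pools.

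The members and lists were chosen with earlier results of these data known. Named were the 4 genes, the 3 nearest in profile to each (log2 CPM with a prior count of 2), the called genes of each list and direction (at most 3, by adjusted p), and a fixed set. Genes beside the loci, and Vip, Ppy, Tpst1, Tpst2, Dpp4, Ptf1a, Cdx1, Tff2, Vil1, Pitx1, Stmn2, Hand2, Cdh17, Lmx1a and Etv1, were named after their values were seen. So were Cldn18, Lgals4 and Nkx6-3. Positions are from GENCODE M21 and upstream sequences from RefSeq, with 4 of 4 genes matched. The listed gut marker Muc2 was absent by that symbol from the deposited count tables and could not be read. Results for some genes of the lists and the rule are not reported here.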

Additional observations from a re-analysis of the deposited data

How the results depend on the processing

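The log2 fold changes of Cck, Gip, Gast and Sct kept their direction, and stayed within 1 SD between pools of the reported value, under all 16 alternatives. They ranged from 1.97 to 2.18 for Cck, 2.50 to 2.84 for Gip, -2.10 to -1.88 for Gast and -1.71 to -1.43 for Sct. Counts of calls moved more. Without the 2 pools with almost no Xist, edgeR called 315 genes higher and 350 lower, with 0 receptors higher, 2 transcription factors higher and 0 gut markers lower. Leaving out each pool in turn gave 282 to 696 genes higher and 343 to 725 lower. In those fits the peptide hormone genes called lower numbered 5 to 8, the receptors called higher 0 to 0 and lower 0 to 2, the transcription factors called higher 0 to 1, the gut markers called higher 0 to 1 and lower 0 to 1, and the neuron markers called lower 3 to 8. DESeq2 called 0 receptors higher, 1 transcription factor higher and 3 gut markers lower. Limma voom called 0 gut markers lower, and total-count scaling 0 gut markers higher. Deviations of same-numbered pools correlated at 0.138, 0.101 and -0.0497, within the -0.234 to 0.159 of differently numbered pools. With 3 pools per group, these values cannot decide whether equal replicate numbers pair the pools. With the number as a replicate block, 576 genes were called higher and 562 lower, 0 receptors higher and 2 gut markers lower, and the calls of Cckbr (edgeR adjusted p = 0.0683) and Dpp4 (0.0621) were lost. Fewer pools remained where some were left out, and the cause of these shifts was not tested. Depth limits the mutant values of Gast and Sct, at 21 to 42 reads per pool, and the control values of Gip.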

Other observations

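Peptide genes below the filter give values only. Ucn3, encoding the islet peptide urocortin 3, had 4, 1 and 4 reads in control pools 1 to 3 and 0 reads in each mutant pool. Insl5, a hormone gene of colonic L cells, had 2, 4 and 6 reads in controls and 1, 7 and 0 in mutants. Pdyn, encoding prodynorphin, had 0 reads in every pool.

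Cartpt, encoding the CART peptide, was among the more abundant peptide genes and was not called. Its control pools held 437, 401 and 815 reads and its mutant pools 475, 448 and 548. Ppy, encoding pancreatic polypeptide, fell from 22, 31 and 18 reads to 3, 4 and 5 reads (log2 fold change -2.53, SE 0.386, edgeR adjusted p = 0.00511). Vip, a neuropeptide gene of gut and pancreatic neurons, had 13, 23 and 45 reads in controls and 3, 5 and 3 in mutants (-2.84, SE 0.557, edgeR adjusted p = 0.0161), and its call was lost without any 1 of the mutant pools (edgeR adjusted p from 0.0512 to 0.0646).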
